A study of Mus musculus with 14 samples.

Results

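The serpin family was followed over 4 groups of arrays as all probes whose platform gene symbol begins with Serpin, a clade letter from a to i and a number. The rule found 81 probes of 56 genes among 45281 probes and 19057 singly named genes on the array. Transcript levels were measured in mammary epithelial cells of female FVB/NJ mice on 14 single-colour Illumina mouse BeadChips. After digestion of the glands, cells without the leukocyte, endothelial and erythroid surface proteins CD45, CD31 and TER119 were sorted by CD29 and CD24. The 4 groups were MaSC-enriched cells (CD29hiCD24+, enriched for mammary stem cells, which also hold basal and myoepithelial cells) of mice at day 12.5 of pregnancy (n = 4), MaSC-enriched cells of virgin mice (n = 3), luminal cells (CD29loCD24+) of pregnant mice (n = 4) and luminal cells of virgin mice (n = 3). Each replicate was drawn from a pool of mice, sort purity was given as above 90% and ages were not given, so p-values measure the spread between pools and arrays. In such bulk RNA, fewer cells of a type and less RNA per cell cannot be told apart.

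Serpins share a fold that holds a protease by a suicide mechanism: the target cuts an exposed reactive loop, the loop swings into the body of the serpin, and the protease is trapped as a distorted covalent complex. Members of clades A, C to G and I are mostly secreted and act on proteases of clotting, fibrinolysis, complement and inflammation. Clade B members lack a classical signal peptide and mostly stay in the cytosol or nucleus. Some members inhibit no protease and serve as chaperones or hormone carriers. In the mammary gland the family is known for maspin (Serpinb5), described in myoepithelial cells, and for inhibitors of plasminogen activation, the protease system of tissue remodelling.

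The sorted populations carried their markers. Of 14 tested basal markers, 10 were higher and 1 lower in MaSC-enriched than in luminal cells of pregnant mice, and 13 were higher in virgin mice. Of 14 tested luminal markers, 12 were lower in pregnant and 13 in virgin mice. Of all tested probes, 18.2% were higher and 21.4% lower in pregnant mice, and 13.6% and 15.5% in virgin mice. Per array, 34.8% to 42.3% of all probes were detected, and the arrays lay on 4 chips. Values are log2 of background-corrected, quantile-normalized intensity. A probe was called detected on an array at a detection p-value, its rank against negative control probes, below 0.05. A probe detected on at least 3 arrays was tested, and a difference passed at a limma adjusted p below 0.05.

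Of the 81 serpin probes, 23 (28.4%) were tested, against 46.2% of all probes on the array, and they covered 18 genes. A further 52 probes, including every probe of 33 genes, were detected on no array, and 6 probes were detected on 1 or 2 arrays. Only Serpina3n, Serpinb6a, Serpinf1, Serping1 and Serpinh1 had a probe detected on all 14 arrays. Clade A had 9 of 28 probes tested, clade B 6 of 37, clade C 1 of 2, clade F 2 of 5, clade I 1 of 2, and clades G and H 2 of 2 each. The single clade D probe and both clade E probes, which belong to Serpine3, were detected on no array. MaSC-enriched arrays detected 14 to 18 serpin probes in pregnant and 17 to 18 in virgin mice. Luminal arrays detected 9 to 13 in pregnant and 11 to 12 in virgin mice.

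**Figure D1:**
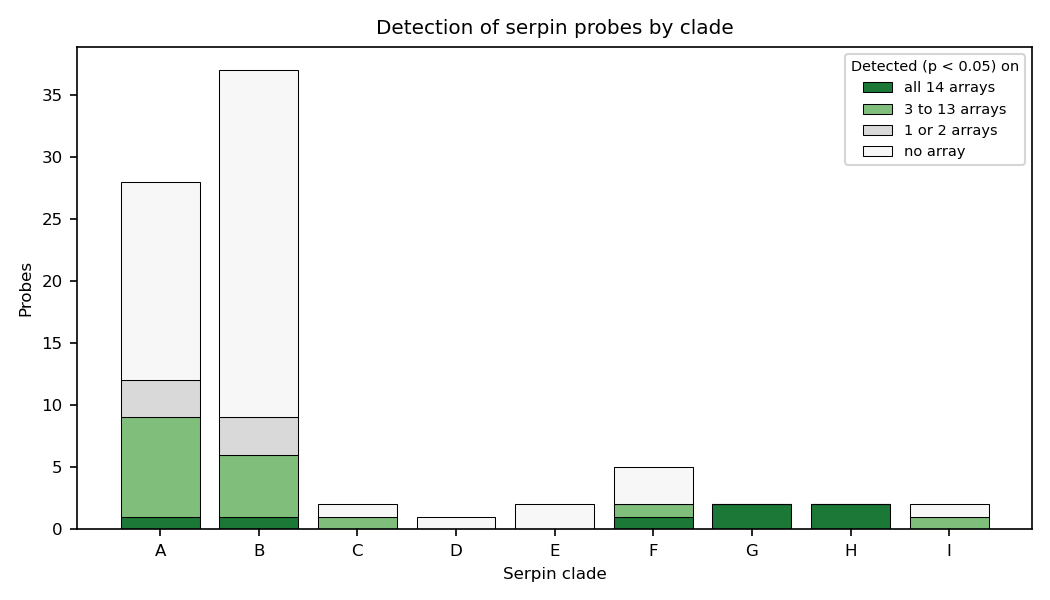
Number of serpin probes on the array (y axis) by clade (x axis), stacked by the number of arrays with a detection p-value below 0.05. Clades A and B hold most probes, 28 and 37, and most of these were detected on no array, whereas both probes of clade G and both of clade H were detected on all 14.

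The undetected clade A genes were Serpina11, Serpina12, Serpina1a, Serpina1c, Serpina1e, Serpina1f, Serpina3a, Serpina3b, Serpina5, Serpina6 and Serpina9. In clade B they were Serpinb10, Serpinb13, Serpinb1a, Serpinb1b, Serpinb1c, Serpinb3a, Serpinb3d, Serpinb5, Serpinb6d, Serpinb6e, Serpinb7, Serpinb9, Serpinb9b, Serpinb9c, Serpinb9d, Serpinb9e, Serpinb9f and Serpinb9g. Serpind1, Serpine3, Serpinf2 and Serpini2 completed the list. The only Serpinb5 probe had a lowest detection p of 0.151 and a log2 level of at most 5.21 over the 14 arrays, which does not show that the transcript was absent. Serpina10, Serpina4-ps1, Serpina7, Serpinb2 (the plasminogen activator inhibitor PAI-2) and Serpinb6c were each detected on 1 array. Along the chromosomes, 19 clade A genes with a probe lay next to each other on chromosome 12 and 7 were tested. The run of 15 clade B genes on chromosome 13 held 2 tested genes, and the run of 11 on chromosome 1 held 4.

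The population comparison asked which serpins distinguish MaSC-enriched from luminal cells. Serpin transcripts that differed were all higher in MaSC-enriched cells. In pregnant mice 11 of 23 probes (47.8%, 9 of 18 genes) were higher and none lower, where 39.5% of all tested probes passed (18.2% higher and 21.4% lower). In virgin mice 14 of 23 (60.9%, 10 of 18 genes) were higher and none lower, where 29.2% of all tested probes passed (13.6% higher and 15.5% lower). Of the 23 probes, 8 were tested only because MaSC-enriched arrays detected them, 5 of these with no luminal array detected, so the filter favoured their direction and the counts are a description. They were the tested probes of Serpina1b, Serpina1d, Serpina3f, Serpina3i, Serpinb6b and Serpini1. Of the 13 probes that did not depend on 1 population alone to be tested, 8 were higher in pregnant and 8 in virgin mice. Serpina3n, Serpina3f, Serpinb6a, Serpinb6b, Serpinb11, Serpinf1, Serping1 and Serpinh1 passed in both states. Serpina3i passed in pregnant mice and Serpina1b and Serpini1 in virgin mice, with no test of the difference between states passing for these 3. At an unadjusted p below 0.05, 12 probes passed in pregnant and 17 in virgin mice. The share of all probes at that threshold was not computed, so these 2 counts cannot be judged against it. Arrays of the populations did not overlap for 10 probes in pregnant mice, 9 of them higher in MaSC-enriched cells (45.5% of all probes did not overlap), and for 14 in virgin mice, all higher (35.3%).

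**Figure D2:**
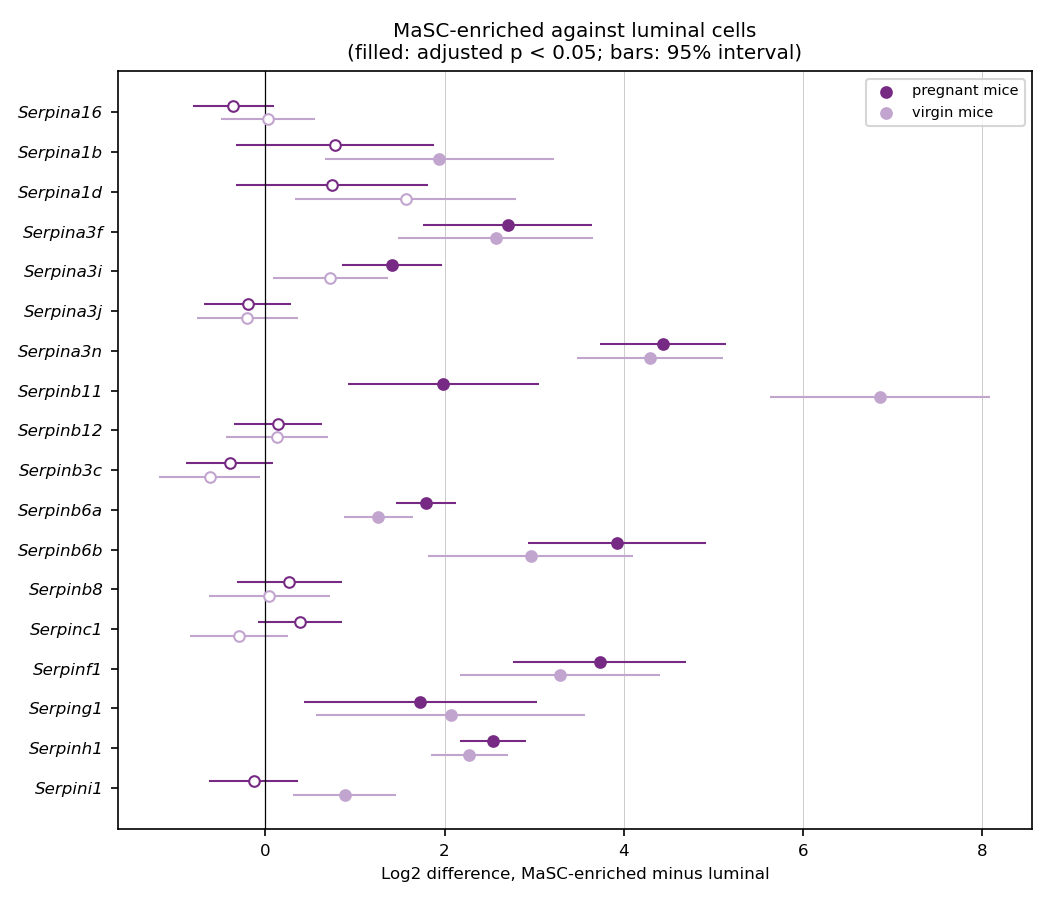
Log2 difference, MaSC-enriched minus luminal (x axis), of the leading probe of each of the 18 tested serpin genes (y axis), in pregnant mice above and virgin mice below. Points are estimates, bars 95% intervals, and filled points passed the threshold; every filled point lies right of 0.

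Among secreted clade A members, Serpina3n, a mouse relative of human alpha-1-antichymotrypsin and an acute-phase inhibitor, had the largest difference in pregnant mice. Its log2 levels were 13.09, 13.02, 13.33 and 13.51 in pregnant MaSC-enriched cells and 7.85, 8.43, 9.31 and 9.62 in pregnant luminal cells. In virgin mice they were 14.43, 13.70 and 14.54 in MaSC-enriched cells and 9.95, 9.66 and 10.19 in luminal cells. Every MaSC-enriched array lay above every luminal array. The difference was 4.44 (SE 0.33, 21.7-fold, adjusted p = 5.98e-08) in pregnant and 4.29 (SE 0.38, 19.6-fold, adjusted p = 5.09e-07) in virgin mice.

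Serpina3f, of the same gene cluster, had log2 levels of 6.32, 8.06, 7.69 and 8.27 in pregnant MaSC-enriched cells against 4.70, 4.84, 5.06 and 4.92 in pregnant luminal cells, with no luminal array detected. It had 7.94, 6.70 and 8.84 in virgin MaSC-enriched cells against 5.62, 4.67 and 5.48 in virgin luminal cells, where 1 of 3 arrays detected it. The groups did not overlap. In pregnant mice the difference was at least 3.40-fold (log2 2.71, adjusted p = 0.000166). In virgin mice it was a log2 of 2.57 (adjusted p = 0.00127). The probe was tested only through MaSC-enriched arrays, of which 7 detected it against 1 luminal array. For a group with no detected array the fold is a bound, computed against the lowest level detected on each array or the probe's own value if higher. Serpina3i had 6.41, 6.29, 6.76 and 6.09 in pregnant MaSC-enriched cells against 4.90, 4.88, 5.22 and 4.92 in pregnant luminal cells, at least 1.49-fold higher (log2 1.41, adjusted p = 0.0005). It was detected on 4 pregnant and 1 virgin MaSC-enriched arrays and on no luminal array, so it was tested only through the population in which it was high. In virgin mice it had 5.25, 6.40 and 5.01 in MaSC-enriched cells against 4.92, 4.72 and 4.83 in luminal cells, and the difference of 0.73 did not pass (adjusted p = 0.087) unless virgin MaSC-enriched replicate 3 was left out (1.01, adjusted p = 0.0207).

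The 250 bases before the RefSeq start sites of these 3 related genes (GRCm38.p6) are shown because the genes lie in 1 cluster on chromosome 12 and all were higher in MaSC-enriched cells. The windows are Serpina3n at chr12:104406458-104406707, the first of 2 for Serpina3f at chr12:104214294-104214543 and Serpina3i at chr12:104262872-104263121, on the plus strand. Capitals mark matches, on either strand and with overlaps kept, to the TATA box (TATAAA), the CCAAT box, the GC box (GGGCGG) and the palindrome TTCNNNGAA that STAT factors are known to bind.
Serpina3n: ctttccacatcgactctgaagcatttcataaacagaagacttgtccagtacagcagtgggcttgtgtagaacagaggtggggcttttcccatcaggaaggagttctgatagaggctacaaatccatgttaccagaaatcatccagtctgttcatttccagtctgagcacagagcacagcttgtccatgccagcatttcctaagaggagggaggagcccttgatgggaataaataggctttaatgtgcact
Serpina3f: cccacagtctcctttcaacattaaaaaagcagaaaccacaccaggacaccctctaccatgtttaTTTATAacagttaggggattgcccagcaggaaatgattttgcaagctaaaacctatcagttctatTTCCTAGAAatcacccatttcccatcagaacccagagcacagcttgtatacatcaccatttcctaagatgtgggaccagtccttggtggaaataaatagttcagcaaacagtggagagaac
Serpina3i: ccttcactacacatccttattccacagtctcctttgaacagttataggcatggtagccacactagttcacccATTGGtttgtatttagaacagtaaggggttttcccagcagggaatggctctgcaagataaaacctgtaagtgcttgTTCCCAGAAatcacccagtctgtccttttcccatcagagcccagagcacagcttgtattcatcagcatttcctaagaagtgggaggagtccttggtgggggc
Serpina3f and Serpina3i each held a TTCNNNGAA match, which 7.02% of 32851 promoter windows of this length held, and Serpina3n held none of the 4 motifs. In global alignments of these windows, identical bases made up 61.6% (Serpina3n and Serpina3f), 65.2% (Serpina3n and Serpina3i) and 71.2% (Serpina3f and Serpina3i) of the window. For 3 pairs of serpin genes from different clades the share was 42.8% to 48.0%. This measure was adopted after a first one gave ranges that overlapped. Those were 68.9% to 76.5% for the pairs from different clades and 75.8% to 86.4% for the Serpina3 pairs. The gap between the shares is therefore no test of relatedness.

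Serpina1b, an alpha-1-antitrypsin whose human counterpart inhibits neutrophil elastase, lay near background. Its leading probe had 8.43, 6.21 and 5.89 in virgin MaSC-enriched cells against 5.06, 4.88 and 4.76 in virgin luminal cells, none of which detected it. The first of these MaSC-enriched arrays was far above the others. The difference was at least 2.32-fold (log2 1.94, adjusted p = 0.023), and the other 2 probes gave log2 differences of 1.86 and 1.91 (adjusted p = 0.0122 and 0.00948). All 3 probes were tested only through MaSC-enriched arrays. The leading probe gave 1.14 (adjusted p = 0.106) and the probe at 1.86 gave 1.18 (adjusted p = 0.0536) once virgin MaSC-enriched replicate 1 was left out. Leaving out any 1 virgin luminal array also ended the call of the leading probe (adjusted p = 0.051, 0.0582 and 0.0596), as did testing with no detection filter (adjusted p = 0.0709). The probe at 1.91 kept its call under all 27 alternatives in which it was tested (adjusted p at most 0.0398). In pregnant mice the leading probe had 5.12, 7.20, 6.39 and 5.19 in MaSC-enriched cells and 5.29, 5.64, 5.13 and 4.72 in luminal cells, which overlapped. The Serpina1d probe had its highest levels on the same arrays, virgin MaSC-enriched replicate 1 and pregnant replicate 2. Serpina1b and Serpina1d are near-identical paralogs, with 89.2% of the promoter window identical, and their probes may share transcripts.

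Among intracellular clade B members, Serpinb11, whose mouse protein inhibits trypsin-like proteases, showed the largest population difference of the family in virgin mice. Its log2 levels were 12.89, 11.16 and 12.45 in virgin MaSC-enriched cells and 4.78, 4.69 and 6.43 in virgin luminal cells, where 1 of 3 arrays detected it. The difference was 6.86 (SE 0.58, adjusted p = 2.84e-07). With 2 of 3 luminal arrays at background its size depends on the background correction, and it was 5.17 without any and 5.92 with an offset of 50 in place of 16. In pregnant mice the levels were 9.17, 8.30, 8.43 and 9.31 in MaSC-enriched cells and 7.46, 7.41, 6.90 and 5.51 in luminal cells. The groups did not overlap, and the difference was 1.98 (SE 0.50, adjusted p = 0.00514). The Serpinb11 window, at chr1:107362064-107362313 on the plus strand, is shown because this gene also changed most in pregnancy.
Serpinb11: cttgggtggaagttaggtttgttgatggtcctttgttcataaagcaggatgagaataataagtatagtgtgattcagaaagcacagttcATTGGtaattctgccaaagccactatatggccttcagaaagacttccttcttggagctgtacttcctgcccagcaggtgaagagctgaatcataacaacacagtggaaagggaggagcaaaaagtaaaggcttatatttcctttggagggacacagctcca
It held 1 CCAAT match, a motif in 33.8% of windows.

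Serpinb6a, an intracellular inhibitor of cathepsin G, was abundant in both populations. It had 12.08, 12.07, 12.05 and 12.19 in pregnant MaSC-enriched cells against 10.45, 10.22, 10.21 and 10.32 in pregnant luminal cells. In virgin mice it had 12.40, 12.54 and 12.27 in MaSC-enriched cells against 10.92, 11.32 and 11.19 in luminal cells. All MaSC-enriched arrays were above all luminal arrays, by 1.80 in pregnant (3.48-fold, adjusted p = 2.88e-07) and 1.26 in virgin mice (2.39-fold, adjusted p = 6.93e-05). Its other 3 probes were not tested.

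The paralog Serpinb6b had 9.76, 9.72, 9.86 and 9.38 in pregnant MaSC-enriched cells and 5.79, 5.56, 6.32 and 5.34 in pregnant luminal cells, where 2 of 4 arrays detected it. The difference was 3.93 (SE 0.46, adjusted p = 7.26e-06), or 2.57 without background correction. The probe was tested only through MaSC-enriched arrays, of which 7 detected it against 2 luminal arrays. In virgin mice it had 8.44, 9.85 and 6.66 in MaSC-enriched cells and 5.47, 5.30 and 5.30 in luminal cells, none of which detected it. The virgin MaSC-enriched arrays were widely spread, and the difference was at least 6.44-fold (log2 2.96, adjusted p = 0.000596). The log2 difference was 2.18 without virgin MaSC-enriched replicate 2 and 3.79 without replicate 3. The remaining tested clade B genes, Serpinb12, Serpinb3c and Serpinb8, passed in no comparison.

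Serpinh1, the endoplasmic reticulum chaperone HSP47 that binds folding procollagen and inhibits no protease, had 14.73, 14.21, 14.45 and 14.26 in pregnant MaSC-enriched cells against 11.69, 11.78, 11.97 and 12.02 in pregnant luminal cells. In virgin mice it had 14.19, 13.94 and 13.81 in MaSC-enriched cells against 11.70, 11.79 and 11.62 in luminal cells. The luminal arrays were tightly grouped and lay wholly below. The difference was 2.54 in pregnant (SE 0.17, 5.83-fold, adjusted p = 2.34e-08) and 2.28 in virgin mice (SE 0.20, 4.84-fold, adjusted p = 4.36e-07). A second probe gave 2.79 and 2.45.

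Of 18 tested collagens and collagen-modifying or chaperone genes, 12 were higher and 1 lower in MaSC-enriched cells of pregnant mice, where 18.2% of all probes were higher and 21.4% lower. In virgin mice 11 were higher and none lower, where 13.6% of all probes were higher and 15.5% lower. The list medians were 1.97 in pregnant and 2.22 in virgin mice, against -0.12 and -0.06 over all probes. Col7a1 and Col17a1, collagens that anchor basal cells to the basement membrane, differed by 5.63 and 5.48 in pregnant and by 5.80 and 6.44 in virgin mice. Col18a1 and Col4a2, of the basement membrane, differed by 4.52 and 4.15 in pregnant and by 4.92 and 4.86 in virgin mice.

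Serpinf1, pigment epithelium-derived factor, is a secreted member that inhibits no protease and restrains vessel growth. It had 13.57, 13.71, 13.85 and 13.83 in pregnant MaSC-enriched cells against 9.28, 9.58, 11.11 and 10.06 in pregnant luminal cells. In virgin mice it had 13.20, 13.34 and 12.48 in MaSC-enriched cells against 9.63, 11.01 and 8.53 in luminal cells. The groups did not overlap, and the differences were 3.73 (13.3-fold, adjusted p = 9.42e-06) in pregnant and 3.28 (9.74-fold, adjusted p = 0.000187) in virgin mice. A second Serpinf1 probe stayed near background and showed no such difference (-0.14 in pregnant and -0.23 in virgin mice). The windows of Serpinh1 (chr7:99353240-99353489, minus strand) and Serpinf1 (chr11:75422624-75422873, minus strand) are shown as those of the non-inhibitory members.
Serpinh1: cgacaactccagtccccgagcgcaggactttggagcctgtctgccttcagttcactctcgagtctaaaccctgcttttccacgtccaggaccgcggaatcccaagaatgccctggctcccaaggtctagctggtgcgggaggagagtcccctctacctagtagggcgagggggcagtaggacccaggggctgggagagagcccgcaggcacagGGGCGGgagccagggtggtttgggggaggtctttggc
Serpinf1: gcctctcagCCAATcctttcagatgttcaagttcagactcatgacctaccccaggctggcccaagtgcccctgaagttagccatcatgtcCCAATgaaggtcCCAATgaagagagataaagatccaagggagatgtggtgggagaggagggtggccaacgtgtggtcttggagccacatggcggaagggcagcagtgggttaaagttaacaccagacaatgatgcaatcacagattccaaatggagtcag
Serpinh1 held 1 GGGCGG match, a motif in 32.7% of windows, and Serpinf1 held 3 CCAAT matches.

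Serping1, the C1 inhibitor of complement and the contact system, passed with groups that overlapped, and is described outside the rule for named genes because its values were seen. It had 10.65, 10.91, 10.66 and 10.12 in pregnant MaSC-enriched cells against 8.04, 8.48, 10.21 and 8.68 in pregnant luminal cells. In virgin mice it had 12.64, 12.16 and 10.48 in MaSC-enriched cells against 9.45, 11.36 and 8.28 in luminal cells. The difference was 1.73 (adjusted p = 0.0345) in pregnant and 2.07 (adjusted p = 0.0382) in virgin mice. In pregnant mice a chip block took the difference to 1.09 and ended the call (adjusted p = 0.104), which was also lost when any of 6 single arrays was left out (adjusted p = 0.0671 to 0.102). The virgin call was lost under median scaling (adjusted p = 0.0694) and when any of 5 single arrays was left out (adjusted p = 0.0504 to 0.17), and the difference was 1.36 without virgin luminal replicate 3. These calls also ended with no detection filter (adjusted p = 0.102 in pregnant and 0.111 in virgin mice). A second Serping1 probe gave 1.68 (adjusted p = 0.0437) in pregnant and 2.21 (adjusted p = 0.0302) in virgin mice. Its call was lost under 12 of 28 alternatives in pregnant mice and under 6 in virgin mice.

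Markers of other cells were compared on the same arrays. Of all tested probes, 18.2% were higher and 21.4% lower in MaSC-enriched cells of pregnant mice, and 13.6% and 15.5% in virgin mice. All 10 fibroblast markers had a probe, and 3 in pregnant and 2 in virgin mice were higher in MaSC-enriched cells, Fbln1 and Thy1 in both. Their summed level in MaSC-enriched cells was 24626 to 34901 when pregnant and 18506 to 30566 when virgin. In luminal cells it was 3424 to 14588 when pregnant and 12698 to 33585 when virgin. These sums of unlogged levels weigh abundant genes most. In virgin luminal cells Dcn had log2 levels of 14.26, 14.72 and 13.50, and Col1a1 7.24, 8.30 and 7.08. The median log2 level of the 10 markers was 9.37 to 10.59 in MaSC-enriched and 7.26 to 9.24 in luminal cells of pregnant mice. In virgin mice it was 8.11 to 9.88 and 7.18 to 9.78. Within the luminal groups, pregnant replicate 3 and virgin replicate 2 had the highest fibroblast sums and the highest Serpinf1 and Serping1. Of 7 pericyte markers, 5 were higher in MaSC-enriched cells in each state, and of 7 tested endothelial markers 6 were higher in pregnant and none in virgin mice. Of 2 tested erythroid markers, 1 was lower in MaSC-enriched cells of pregnant and 2 in those of virgin mice. Of 8 leukocyte markers with a probe, Ptprc and Itgam were detected on no array, and 2 to 6 of the others per array. Their summed level was 926 to 1375 in MaSC-enriched and 690 to 1337 in luminal cells of pregnant mice, and 445 to 1124 in MaSC-enriched and 362 to 655 in luminal cells of virgin mice. Of the 6 tested, Cd3e was higher in MaSC-enriched than luminal cells of pregnant mice (1.54) and in pregnant MaSC-enriched cells (1.56), and Cd52 in pregnant luminal cells (1.21). The part of these cells in the serpin differences was not tested.

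**Figure D3:**
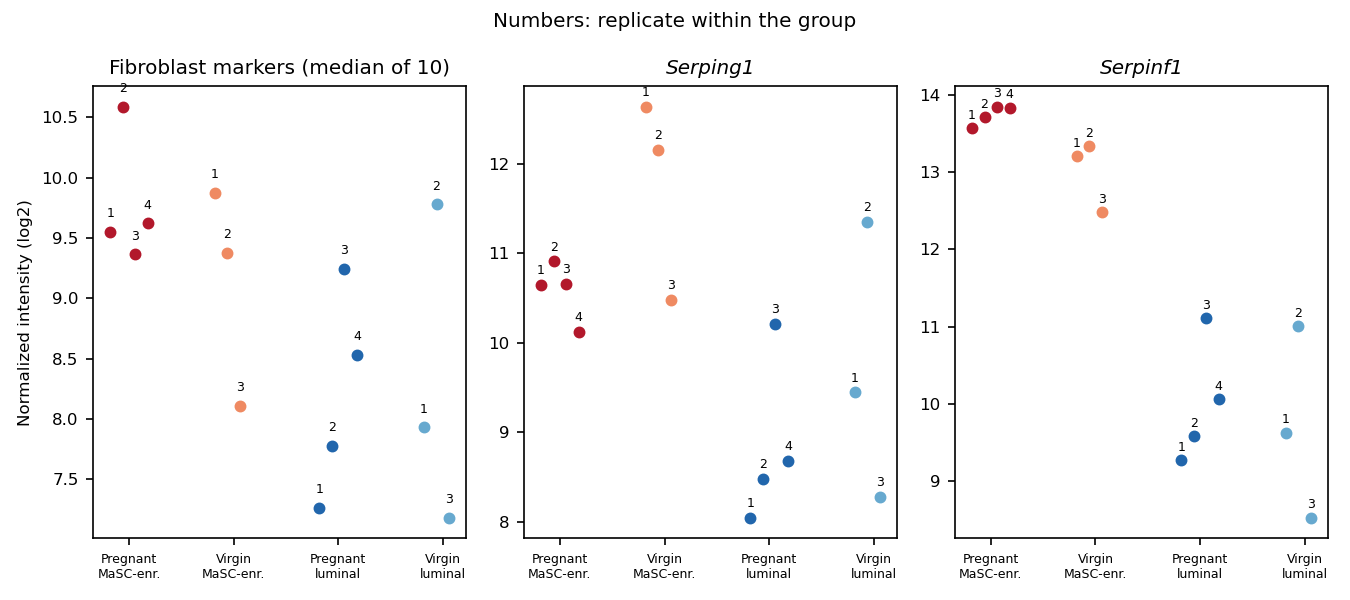
Median log2 level of 10 fibroblast markers, and log2 levels of Serping1 and Serpinf1 (y axes, each panel with its own scale), for each array in the 4 groups (x axis), numbered by replicate. Pregnant luminal replicate 3 and virgin luminal replicate 2 are the highest luminal arrays in all 3 panels.

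Serpini1, neuroserpin, an inhibitor of tissue plasminogen activator, had 6.39, 5.80 and 5.93 in virgin MaSC-enriched cells against 4.99, 5.02 and 5.45 in virgin luminal cells, none of which detected it. The difference was at least 1.33-fold (log2 0.89, adjusted p = 0.0217). The probe was tested only through MaSC-enriched arrays, of which 4 detected it against 1 luminal array. It missed the threshold when replicate 1 of the virgin MaSC-enriched arrays was left out (adjusted p = 0.0856). Leaving out replicate 1 or 2 of the virgin luminal arrays did the same (adjusted p = 0.0819 and 0.0735). Pregnant arrays had 5.16, 5.84, 5.49 and 5.31 in MaSC-enriched cells and 5.48, 6.13, 5.52 and 5.19 in luminal cells, which overlapped.

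The pregnancy comparison asked which serpins differ between day 12.5 of pregnancy and the virgin state within a population. Few passed the threshold, and in MaSC-enriched cells their share was close to that of all tested probes. In MaSC-enriched cells 1 of 23 probes was lower and none higher (4.35%, with 4.51% of all tested probes called, 2.52% higher and 1.99% lower), and in luminal cells 2 were lower and none higher (8.7%, with 19.5% called, 9.73% higher and 9.82% lower). At an unadjusted p below 0.05 there were 6 and 5 probes, again with no share of all probes computed to judge them by. Groups of arrays did not overlap for 7 serpin probes in MaSC-enriched cells (14.9% of all probes) and for 3 in luminal cells (31% of all probes). The median absolute log2 difference of the 23 serpin probes was 0.59 in MaSC-enriched cells, against 0.28 over all probes. In luminal cells it was 0.29 against 0.36. These gaps between serpin probes and all probes were not tested.

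**Figure D4:**
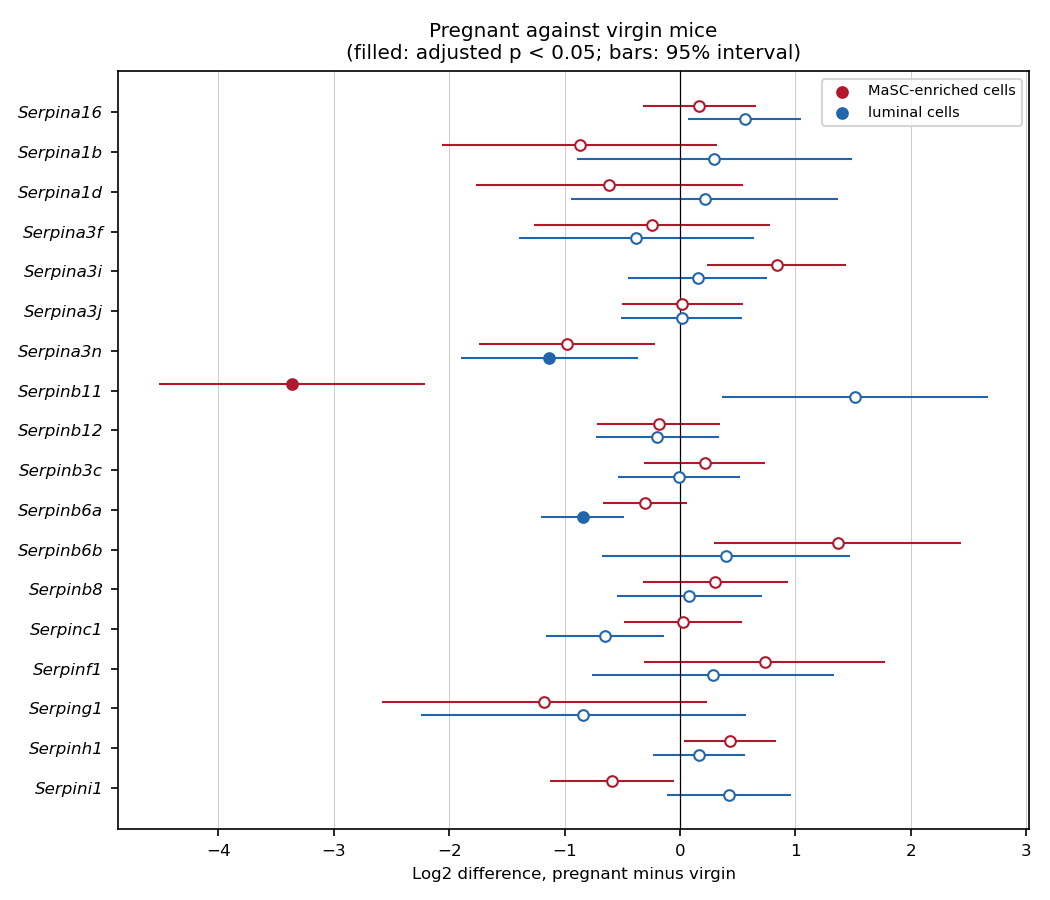
Log2 difference, pregnant minus virgin (x axis), of the leading probe of each of the 18 tested serpin genes (y axis), in MaSC-enriched cells above and luminal cells below. Points are estimates, bars 95% intervals, and filled points passed the threshold: Serpinb11 in MaSC-enriched cells, and Serpina3n and Serpinb6a in luminal cells, all left of 0.

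Serpinb11 fell in pregnant MaSC-enriched cells. The arrays given above, 8.30 to 9.31 in pregnant and 11.16 to 12.89 in virgin mice, did not overlap, and the difference was -3.36 (SE 0.54, 10.3-fold lower, adjusted p = 0.00207). Only chip 4 held both states of this population, and the difference there was -3.14. In luminal cells it was higher in pregnant mice by 1.52 without passing (adjusted p = 0.063), with overlapping groups. That difference passed under 5 alternatives, among them without pregnant luminal replicate 4 (2.00, adjusted p = 0.0136) and without virgin luminal replicate 3 (2.09, adjusted p = 0.0168). Within chips it was 2.65, 2.21 and -0.93. The interaction, in which the luminal pregnancy difference is subtracted from the MaSC-enriched one, was -4.88 (SE 0.76, adjusted p = 0.00101). Because 2 of 3 virgin luminal arrays and pregnant luminal replicate 4 did not detect the probe, its size is uncertain, and it ran over the alternatives from -5.95 to -3.86, past the threshold in each. It was the only serpin probe to pass there, of 23 (of all probes 7.59% were called, 4.76% higher and 2.83% lower). Of all tested probes, 2.52% were higher and 1.99% lower in pregnant MaSC-enriched cells, and 9.73% and 9.82% in pregnant luminal cells. Beside Serpinb11, 3 of 14 tested basal markers were lower and none higher in pregnant MaSC-enriched cells, Lgr5 and Itgb4 among them (-4.44 and -1.95), with a list median of 0.04. In pregnant luminal cells 4 of 14 were higher and none lower, Krt14 and Myh11 among them (2.35 and 1.93), with a list median of 0.49. Of 10 alveolar and milk markers, 7 were higher in pregnant MaSC-enriched cells, and their summed level was 94578 to 118390 in pregnant and 15479 to 25590 in virgin mice. The part of these markers in the Serpinb11 differences was not tested.

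Serpina3n was lower in pregnant luminal cells by a log2 of -1.13 (SE 0.36, adjusted p = 0.0372). The groups did not overlap but nearly met, at 9.62 in pregnant replicate 4 and 9.66 in virgin replicate 2. The call ended without pregnant luminal replicate 1 (-0.81, adjusted p = 0.101), without pregnant luminal replicate 2 (adjusted p = 0.0995) and without virgin luminal replicate 1 (adjusted p = 0.106), replicate 2 (adjusted p = 0.0555) or replicate 3 (adjusted p = 0.121). Dropping replicate 3 of the pregnant MaSC-enriched arrays gave an adjusted p of 0.0502, and the call also ended with no detection filter (adjusted p = 0.0847). In MaSC-enriched cells the difference was -0.98 and did not pass (adjusted p = 0.149), with no overlap. Serpinb6a was lower in pregnant luminal cells by -0.84 (SE 0.17, adjusted p = 0.0023), and its groups did not overlap. In MaSC-enriched cells it differed by -0.31 without passing (adjusted p = 0.358). Markers of luminal cell types also differed in pregnant luminal cells, where 9.73% of all tested probes were higher and 9.82% lower. Of 7 tested hormone-sensing markers 5 were lower and 1 higher, with summed levels of 2358 to 4254 in pregnant and 13261 to 22982 in virgin mice. Of 10 alveolar and milk markers 4 were higher and none lower, with summed levels of 130033 to 151441 in pregnant and 79527 to 111888 in virgin mice. The part of these markers in the Serpina3n and Serpinb6a differences was not tested.

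The other leading members did not pass for pregnancy in MaSC-enriched cells. Serpinb6b differed by 1.36 (adjusted p = 0.154), and a chip block brought it past the threshold (1.98, adjusted p = 0.0111), as did leaving out replicate 2 of the virgin MaSC-enriched arrays (2.14, adjusted p = 0.00428). Serpinf1 differed by 0.73 (adjusted p = 0.458), Serpinh1 by 0.43 (adjusted p = 0.229) and Serping1 by -1.18 (adjusted p = 0.363).

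**Figure D5:**
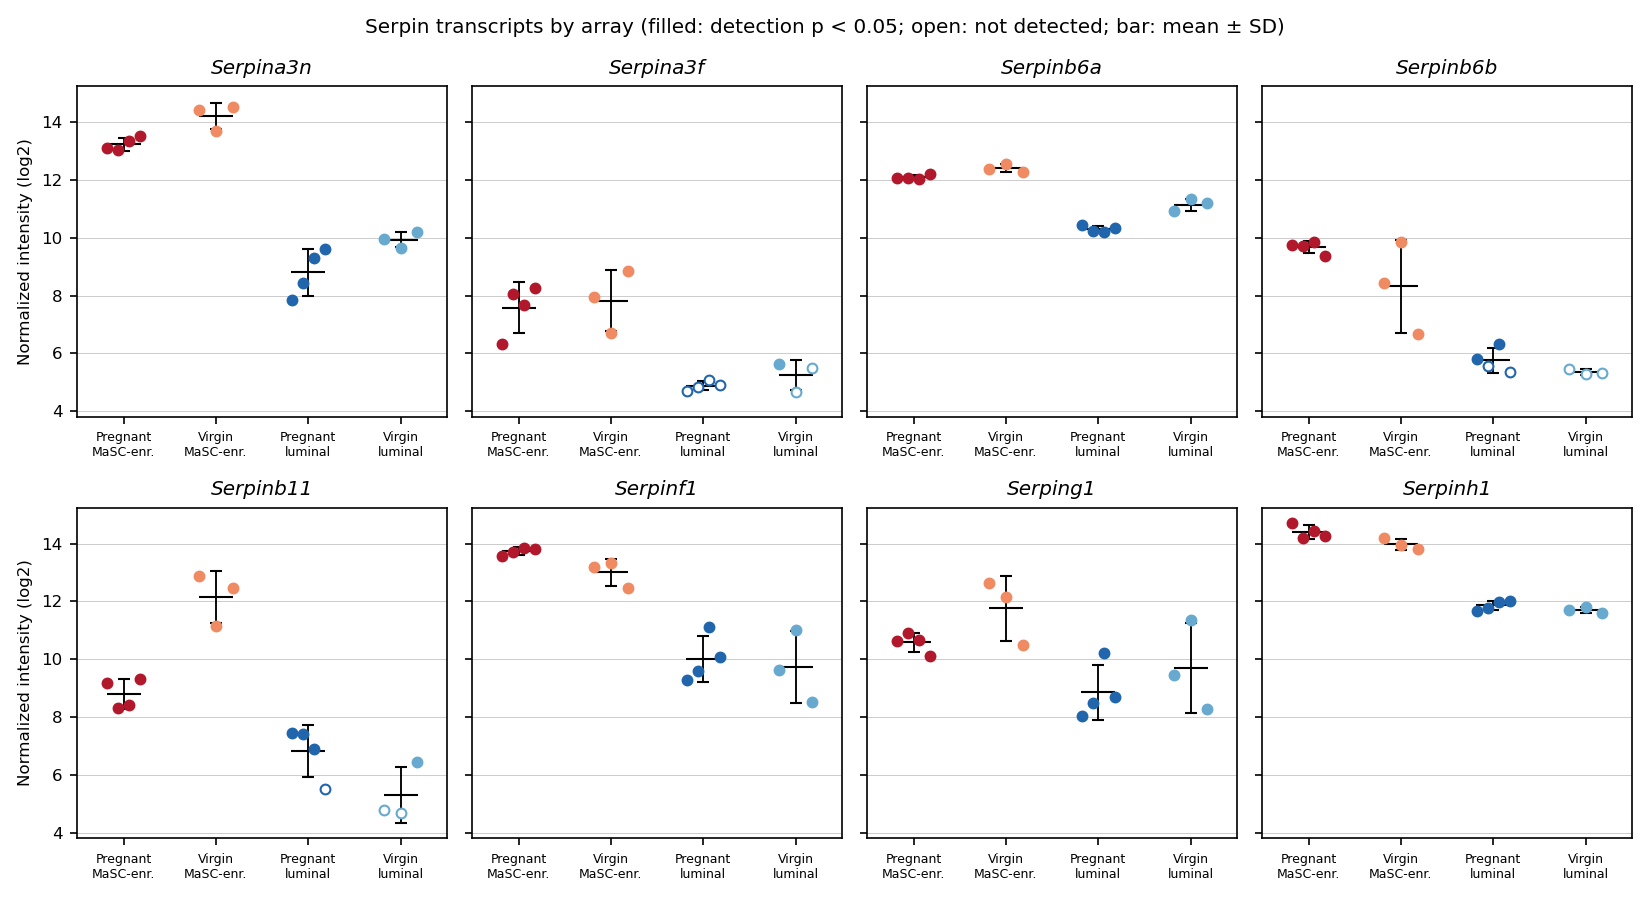
Log2 normalized intensity (y axis) of 8 serpin transcripts on each array of the 4 groups (x axis), with the group mean and SD. Filled points were detected and open points were not. Serpinb11 stands at 11.16 to 12.89 in virgin MaSC-enriched cells, above all other groups.

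Protease, receptor and inhibitor lists were set beside the shares of all tested probes, which were 18.2% higher and 21.4% lower between populations in pregnant mice and 13.6% higher and 15.5% lower in virgin mice. For pregnancy they were 2.52% higher and 1.99% lower in MaSC-enriched cells and 9.73% higher and 9.82% lower in luminal cells. Of 15 tested serine proteases, 4 were higher and 5 lower in MaSC-enriched than luminal cells of pregnant mice, and 3 higher and 6 lower in virgin mice. Htra1, a secreted protease, differed by 4.78 in pregnant and 4.24 in virgin mice, and Plau, urokinase, by 3.12 and 2.44. The membrane protease Tmprss2 differed by -3.25 and -5.17, and St14, matriptase, by -2.86 and -2.74. For pregnancy, 2 were lower in MaSC-enriched cells, Plat, tissue plasminogen activator (-2.70), and Masp1 of the complement lectin pathway (-1.89), and 7 were lower in luminal cells. Of 9 tested cysteine proteases, 2 were higher and 1 lower in MaSC-enriched cells of pregnant mice, where 39.5% of all probes passed, and 2 higher and 4 lower in virgin mice, where 29.2% passed. Ctsl differed by 2.44 and 2.05 and Ctsh by -2.90 and -2.87. For pregnancy none passed in MaSC-enriched cells, and 1 was higher and 4 lower in luminal cells.

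Of 12 tested receptors and cofactors, 5 were higher and 2 lower in MaSC-enriched cells of pregnant mice, and 6 higher and 1 lower in virgin mice. Lrp1, which clears serpin and protease complexes, differed by 2.52 and 2.49, and Vldlr by 2.66 and 1.96. Pnpla2, reported to bind Serpinf1, ran the other way in pregnant mice (-2.10). For pregnancy, 1 was higher and 2 lower in MaSC-enriched cells and 1 lower in luminal cells. Of 9 tested inhibitors outside the serpin family, 1 was higher and 4 lower in pregnant and 2 higher and 4 lower in virgin mice. Slpi, an inhibitor of neutrophil elastase, was lower in MaSC-enriched cells of pregnant mice (-3.63) and higher in those of virgin mice (1.93), with an interaction of -5.56 (adjusted p = 1.24e-05). For pregnancy, 1 was higher and 3 lower in MaSC-enriched cells and 2 were lower in luminal cells.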

How the data were processed

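The authors deposited a raw table with the intensity of each probe on each of 14 arrays, in arbitrary units. Beside each intensity stood the detection p-value deposited by the authors. A second deposited table held log2 values, which match background correction with an offset of 50 and quantile normalization before log2, judged from the values (median difference 0.00019, at most 0.0172), more closely than log2 before quantile normalization (0.00477, at most 0.0719). BeadStudio and limma are named in the submitters' processing notes, and their versions are not given in the sources used here.

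Here, intensities were background corrected with normexp of limma 3.58.1 in R 4.3.3 (offset 16, background inferred from the detection p-values), taken to log2 and quantile normalized. Probes with a detection p below 0.05 on at least 3 arrays (20906 of 45281) were tested in a model with a mean per group over all 14 arrays. Tests were two-sided with empirical Bayes moderation and Benjamini-Hochberg adjustment over all 20906 probes of a comparison. Where a gene had several tested probes, the one highest on average led. Named probes passed in at least 1 group comparison with groups that did not overlap, and named list members were up to 4 a list and comparison with the largest change. Members, lists and tests were chosen with earlier results of these data known. Precision is limited by the number of arrays.

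Gene names came from the platform annotation. Promoter windows, 250 bases before each start, came from RefSeq (GRCm38.p6) and matched 49 of 56 genes. A heat shock element was searched at first, matched no window of a tested serpin and was dropped. The windows were aligned with Biopython 1.88. A first setting with lenient gap penalties gave pairs from different clades 68.9% to 76.5% identity over aligned bases, against 75.8% to 86.4% for the Serpina3 pairs. Stiffer penalties, with identity taken over the whole window, were adopted after those values were seen. Figures were drawn with matplotlib 3.10.9.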

Additional observations from a re-analysis of the deposited data

Results flagged for a closer look

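Serpina3i on pregnant luminal replicate 3 had a log2 level of 5.22, far from the other 3 arrays of its group, which lay between 4.88 and 4.92. The probe was not detected on any of the 4 arrays. This was 1 of 30 groups examined, and chance singles out about 1 in 20.

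The effect of pregnancy on Serpinb11 differed between the populations by a log2 of -4.88, MaSC-enriched minus luminal, in a test of the difference itself.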

How the results depend on the processing

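Of 29 results past the threshold, 21 remained so under all alternatives tried, and none of 806 values reversed (754 kept direction and call, 52 missed the threshold). With chip as a block, serpin probes called for pregnancy numbered 3 in MaSC-enriched and 4 in luminal cells, and 2 in the interaction. Array weights gave 6 in luminal cells and 2 in the interaction. Leaving out an array in turn gave 1 to 3 probes for pregnancy in MaSC-enriched cells, 1 to 3 in luminal cells, 9 to 14 between populations in pregnant mice, 9 to 16 in virgin mice and 1 to 3 in the interaction. The lowest count in virgin mice was without virgin MaSC-enriched replicate 1, and 3 probes in MaSC-enriched cells and in the interaction were called without its replicate 2. The luminal pregnancy count was 1 without virgin luminal replicate 1, pregnant luminal replicate 1 or 2, or pregnant MaSC-enriched replicate 3. The cause was not tested. Leaving out pregnant luminal replicate 3 and virgin luminal replicate 2, the luminal arrays highest in fibroblast markers, was chosen after seeing the data and left 11 probes in pregnant and 12 in virgin mice between populations. Quantile normalization before log2, also added later, moved no count.

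Deviations of same-numbered arrays correlated at -0.17 to 0.42, with 2 of 7 pairs above 0.1. These 2 were virgin replicates 2 and 3 (0.42 and 0.38), whose crossed pairs had -0.45 and -0.33. In pregnant mice same-numbered pairs had at most 0.09, and the highest value, 0.45, was between MaSC-enriched replicate 1 and luminal replicate 3. A pairing in virgin mice thus remains possible. The labels do not say whether same-numbered arrays share a pool, and the numbers were not taken as pairs. With the replicate number as a block the counts were 12 in pregnant and 15 in virgin mice between populations, 1 in the interaction, 1 for pregnancy in MaSC-enriched and 2 in luminal cells. Probes near background limit what can be said of clades A and B.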
